A study of Mus musculus with 6 samples.

Results

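The small leucine-rich proteoglycans are a family of extracellular matrix proteins built from leucine-rich repeats. The 10 genes described here are Dcn, Bgn, Aspn, Lum, Fmod, Prelp, Omd, Kera, Ogn and Chad. They were taken by symbol from the platform's annotation, and the probe set with the highest mean over the arrays stood for each gene. All 10 were measured, among 22180 genes in all.

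Expression was measured on Affymetrix whole-transcript arrays in mammary tumours of 6 mice, with 1 array per tumour. The tumours came from 3 mice lacking serglycin (PyMT+ SG-/-) and from 3 heterozygous mice (PyMT+ SG+/-), so both groups carried PyMT, a transgene for the middle T antigen of polyoma virus that causes mammary tumours, and no tumour had 2 intact copies of the serglycin gene. The sources used here do not give the promoter of the transgene, the ages of the mice or the part of the serglycin gene that was removed. Serglycin is itself a proteoglycan, but one of secretory granules, and is not a member of the leucine-rich family. The question was which tumour genes differ when serglycin is lost. Values are log2 expression after robust multi-array averaging (RMA), 3 values of a genotype stand in the order of replicates 1, 2 and 3, and every difference is SG-/- minus SG+/- on that scale.

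Most of these proteins bind fibrillar collagen and govern how collagen fibres assemble. Many carry chains of chondroitin, dermatan or keratan sulphate, made from sugar units. In tumours they are made mainly by stromal fibroblasts, and decorin and biglycan are also known as ligands or binding partners of growth factors and of innate immune receptors. Decorin, biglycan and asporin form class I of the family. Lumican, fibromodulin, prolargin (encoded by Prelp), osteomodulin and keratocan form class II, osteoglycin belongs to class III, and chondroadherin, first found in cartilage, to class IV.

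Srgn, the targeted gene, stood at 5.07, 5.04 and 4.89 in SG-/- tumours, against 6.76, 6.43 and 6.35 in SG+/- tumours. Its difference of -1.52 (standard error 0.15, limma adjusted p = 0.467) had the smallest p of all genes, and the groups did not overlap (exact two-sided permutation p = 0.1, the smallest that 3 against 3 values allow). No gene among the 22180 passed limma's adjusted p of 0.05 (0 calls), and 469 genes (2.11%) had an unadjusted p under that level. Array medians over all probe sets lay between 6.50 and 6.73. The mean over 1394 olfactory and vomeronasal receptor genes, taken as silent in this tissue, lay between 4.57 and 5.86 and was highest in SG-/- replicate 3. That array also had the narrowest interquartile range over genes, 2.53, against 2.90 to 3.25 in the other arrays. It held the lowest value of 34.3% of all genes and the highest of 26.7%. The part of this narrower scale in the differences was not tested. Of 12 mammary epithelial markers listed, 11 were measured and all 11 had means above the dim level of 6.09, the 40th percentile of probe sets. Krt8, a keratin of luminal cells, averaged 12.24 ± 0.07 in SG-/- tumours, against 12.10 ± 0.04 in SG+/- tumours (SD, n = 3 each). Precision is limited by the 3 arrays of each genotype, and the p-values measure the spread between these mice.

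In 6 of the 10 family genes the values of the SG-/- tumours did not overlap those of the SG+/- tumours. Dcn, Bgn, Fmod, Prelp and Ogn were higher in all 3 SG-/- tumours, and Chad was lower in all 3. Over all genes the genotypes did not overlap in 6.03%, with 2.84% higher and 3.19% lower in SG-/- tumours. The same 6 genes had an unadjusted limma p under 0.05, against 2.11% of all genes, of which 1.43% were higher and 0.685% lower. In 8 of the 10 the SG-/- mean was the higher one, against 46.3% of all genes. None of the 10 passed the limma test after adjustment over all genes (adjusted p = 1.00 for each). The median difference over the 10 genes was 0.73, beside -0.01 over all genes. In whole tumour pieces, a change in the number of cells that make a transcript and a change of RNA per cell cannot be told apart.

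**Figure D1:**
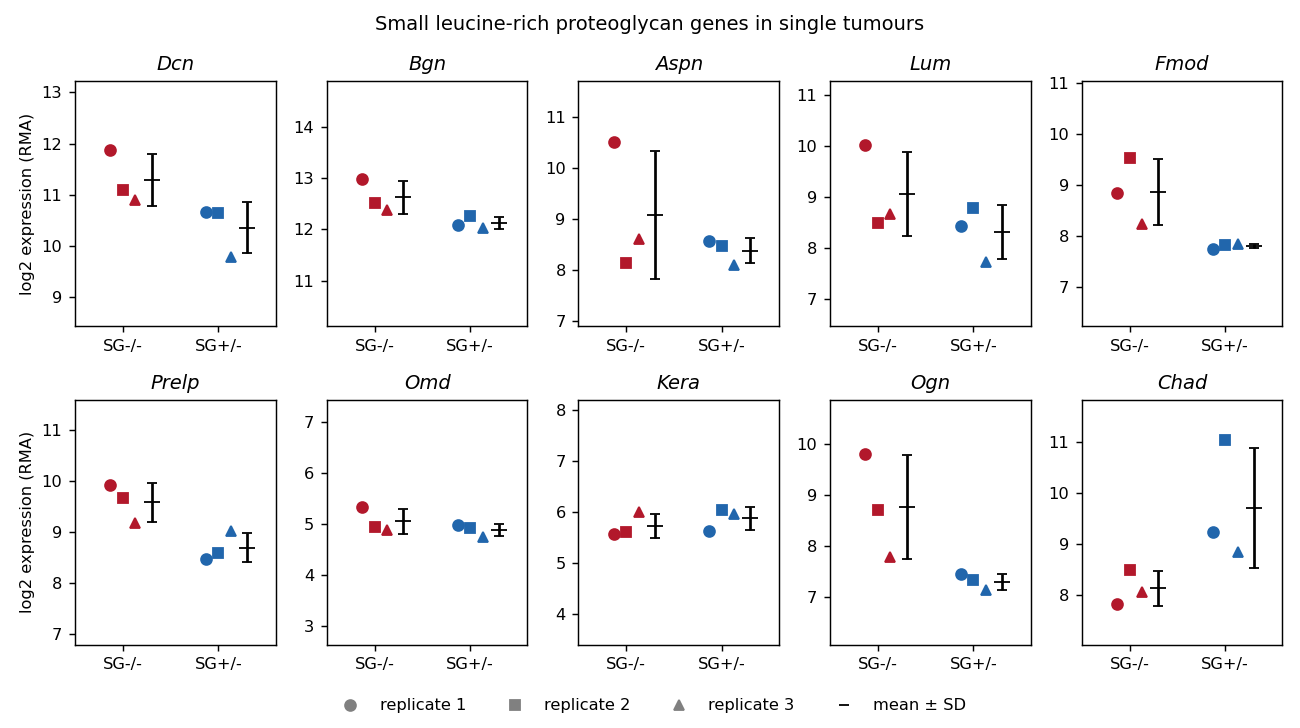
Log2 expression (RMA, vertical axis, the same span of values in every panel) of the 10 genes in each SG-/- tumour (red, left) and SG+/- tumour (blue, right), with the mean and SD of each genotype beside the points. The genotypes are separate for Dcn, Bgn, Fmod, Prelp, Ogn and Chad, and SG-/- replicate 1 is the highest point for 7 of the 10 genes.

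The regions before the start sites are shown for Bgn, Fmod, Prelp, Ogn and Chad, the 5 genes without overlap that have an entry in the RefSeq promoter table of build GRCm38.p6. Each runs from 250 bases before to 50 bases after the start, 5′ to 3′ on the gene's strand. Capitals mark matches, on either strand, to the letters TATAAA of the TATA box, the letters CCAAT that name the motif, the GC box written GGGCGG, the AP-1 site written TGANTCA and the SMAD element written CAGAC. The windows are chrX:73483351-73483650 (plus strand) for Bgn, chr1:134037004-134037303 (plus) for Fmod, chr1:133921352-133921651 (minus) for Prelp, chr13:49607765-49608064 (plus) for Ogn and chr11:94564797-94565096 (plus) for Chad.
Bgn: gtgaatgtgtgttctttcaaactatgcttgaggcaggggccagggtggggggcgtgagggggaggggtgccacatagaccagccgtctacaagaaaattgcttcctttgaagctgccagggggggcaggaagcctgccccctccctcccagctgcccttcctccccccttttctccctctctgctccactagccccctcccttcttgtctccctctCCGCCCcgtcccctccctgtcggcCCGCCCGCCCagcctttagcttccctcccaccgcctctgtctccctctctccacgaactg
Fmod: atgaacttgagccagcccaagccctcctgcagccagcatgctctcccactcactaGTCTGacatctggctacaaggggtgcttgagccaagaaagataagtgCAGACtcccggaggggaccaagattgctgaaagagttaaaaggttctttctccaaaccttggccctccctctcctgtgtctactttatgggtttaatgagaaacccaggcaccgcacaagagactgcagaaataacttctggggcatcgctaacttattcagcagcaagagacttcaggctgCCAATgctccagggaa
Prelp: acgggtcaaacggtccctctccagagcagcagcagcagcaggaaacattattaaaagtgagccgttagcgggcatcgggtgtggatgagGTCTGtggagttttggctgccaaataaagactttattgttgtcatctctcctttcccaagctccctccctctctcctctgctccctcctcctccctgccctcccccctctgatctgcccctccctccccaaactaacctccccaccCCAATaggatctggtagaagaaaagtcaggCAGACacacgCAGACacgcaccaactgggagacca
Ogn: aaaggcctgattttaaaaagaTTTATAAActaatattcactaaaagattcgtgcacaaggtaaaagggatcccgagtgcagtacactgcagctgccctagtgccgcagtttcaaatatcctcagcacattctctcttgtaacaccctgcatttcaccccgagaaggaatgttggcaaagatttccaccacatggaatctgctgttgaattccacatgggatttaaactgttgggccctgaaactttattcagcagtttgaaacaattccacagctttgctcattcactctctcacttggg
Chad: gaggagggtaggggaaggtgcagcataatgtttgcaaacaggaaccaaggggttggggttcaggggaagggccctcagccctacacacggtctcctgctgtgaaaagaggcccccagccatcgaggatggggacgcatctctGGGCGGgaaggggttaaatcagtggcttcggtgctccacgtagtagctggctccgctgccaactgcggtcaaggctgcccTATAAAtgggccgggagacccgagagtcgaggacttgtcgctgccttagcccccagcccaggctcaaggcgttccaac
The Bgn window held 3 GC box matches, at -34, -10 and -6, of which the last 2 overlap each other, and 63.7% of its bases were G or C. Chad had a TATA box match at -28 and a GC box match at -108. Ogn had TATA box letters only far from the start, as 2 overlapping matches on opposite strands at -229 and -227, and its G and C content was 42.3%. Fmod and Prelp, which lie next to each other among the protein-coding genes of chromosome 1, each held 1 CCAAT match (at 35 and -15) and had 2 and 3 SMAD matches. Positions count bases from the start and name the first base of a match. Among all 32851 promoter windows of this length, 13.6% held the TATA letters, 37.4% CCAAT, 35.7% the GC box, 7.81% the AP-1 letters and 49.6% the SMAD letters. A match is a description of the letters, and no match was found for AP-1 in these 5 windows.

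Among class I genes, Dcn, which encodes decorin, a collagen-binding proteoglycan that also sequesters TGF-beta, stood at 11.87, 11.09 and 10.90 in SG-/- tumours, against 10.65, 10.63 and 9.78 in SG+/- tumours. The lowest SG-/- tumour lay 0.25 above the highest SG+/- tumour. The means were 11.29 ± 0.51 in SG-/- tumours, against 10.35 ± 0.50 in SG+/- tumours (SD, n = 3 each). They differed by 0.93 (standard error 0.33, 95% confidence interval from 0.15 to 1.71). Bgn, which encodes biglycan, a relative of decorin that can act on the Toll-like receptors TLR2 and TLR4, stood at 12.98, 12.52 and 12.37 in SG-/- tumours and at 12.09, 12.25 and 12.03 in SG+/- tumours. The gap between the genotypes was 0.12, and the difference was 0.50 (standard error 0.18). A second, dimmer probe set for Bgn averaged 8.80 over the arrays with a difference of 0.37. Aspn, which encodes asporin, a collagen- and TGF-beta-binding protein, stood at 10.51, 8.13 and 8.62 in SG-/- tumours and at 8.56, 8.46 and 8.10 in SG+/- tumours. Its values overlapped, since only SG-/- replicate 1 stood far above the rest. The Aspn difference was 0.71 with an interval from -0.63 to 2.05, and it was 0.0002 without SG-/- replicate 1.

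Among class II genes, Fmod, which encodes fibromodulin, a regulator of collagen fibre thickness, stood at 8.84, 9.52 and 8.23 in SG-/- tumours, against 7.75, 7.82 and 7.83 in SG+/- tumours. The SG+/- tumours were nearly equal (SD 0.045), while the SG-/- tumours spread widely (SD 0.64). Fmod was the only member highest in SG-/- replicate 2. Its difference was 1.06 (standard error 0.30), or 2.09-fold. Prelp, whose product prolargin links matrix collagen to heparan sulphate, stood at 9.91, 9.66 and 9.16 in SG-/- tumours and at 8.47, 8.58 and 9.01 in SG+/- tumours. The gap was 0.15 and the difference 0.89 (standard error 0.24), with a 95% confidence interval from 0.33 to 1.45. Fmod and Prelp each had a dimmer probe set with the same symbol. That of Fmod averaged 6.61 over the arrays with a difference of 0.35, and that of Prelp averaged 6.42 with a difference of 0.01. What these dimmer probe sets detect was not tested.

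Lum, which encodes lumican, a keratan sulphate proteoglycan of many connective tissues, stood at 10.02, 8.50 and 8.67 in SG-/- tumours and at 8.43, 8.78 and 7.74 in SG+/- tumours. The genotypes overlapped, and SG-/- replicate 1 was high while SG+/- replicate 3 was low. Its difference was 0.75 (interval from -0.30 to 1.79), and 0.27 without SG-/- replicate 1. Omd, which encodes osteomodulin, known from bone, and Kera, which encodes keratocan of the cornea, were dim. Omd averaged 5.06 ± 0.24 in SG-/- tumours, against 4.89 ± 0.12 in SG+/- tumours, and Kera 5.73 ± 0.23 in SG-/- tumours, against 5.88 ± 0.22 in SG+/- tumours (SD, n = 3 each). For Omd, the means of 42.5% of the silent receptor genes lay below its own, and for Kera 69.4% did. Neither gene was thus set apart from the level of silent genes, although the floor of each probe set is not known. Their differences were 0.17 and -0.15, with intervals from -0.21 to 0.55 and from -0.57 to 0.27.

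Ogn, the class III member, encodes osteoglycin, also called mimecan, which binds collagen and regulates fibre growth. It stood at 9.81, 8.71 and 7.78 in SG-/- tumours, against 7.45, 7.33 and 7.14 in SG+/- tumours. The lowest SG-/- value lay 0.33 above the highest SG+/- value, and the SG-/- tumours spread over 2 log2 units while the SG+/- tumours stayed close together. The difference was 1.46 (standard error 0.46, interval from 0.37 to 2.55), or 2.75-fold, and 0.94 without SG-/- replicate 1. Ogn varied more over the arrays than 99.0% of genes.

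Chad, the class IV member, encodes chondroadherin, which binds collagen and the alpha-2 beta-1 integrin. It stood at 7.83, 8.50 and 8.07 in SG-/- tumours, against 9.24, 11.04 and 8.84 in SG+/- tumours. The highest SG-/- tumour lay 0.34 below the lowest SG+/- tumour, and SG+/- replicate 2 stood far above all others. The difference was -1.57 (standard error 0.54, interval from -2.85 to -0.29), a 2.97-fold lower level. Without SG+/- replicate 2 it was -0.90. Chad lies within the span of Acsf2, an acyl-CoA synthetase gene, in the RefSeq annotation, and was singled out after its values were seen. Acsf2 stood at 8.02, 8.44 and 7.94 in SG-/- tumours and at 8.45, 9.84 and 8.42 in SG+/- tumours. It too was highest in SG+/- replicate 2, with Pearson r = 0.97 to Chad over the 6 arrays and 0.87 without that array. Whether the probes keep the overlapping genes apart was not tested. Cartilage, bone and tendon are the tissues Chad is best known from. The median difference of their markers was 0.01 over 15 of 17 listed genes, only 6 lay above the dim level, and Acan, the main cartilage proteoglycan, averaged 5.55 ± 0.11 in SG-/- tumours, against 5.65 ± 0.05 in SG+/- tumours (SD, n = 3 each). Their linear levels summed to between 3394 and 4637 in SG-/- arrays and between 3745 and 3804 in SG+/- arrays. In that list the genotypes were apart in 1 higher and 1 lower gene, beside 2.84% and 3.19% of all genes. The lower one was Col9a1 (a cartilage collagen chain), at -0.36. The higher one was Matn3, named after its values were seen, at 0.30. Thbs4 (a tendon matrix protein) differed by 1.09 with overlap.

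**Figure D2:**
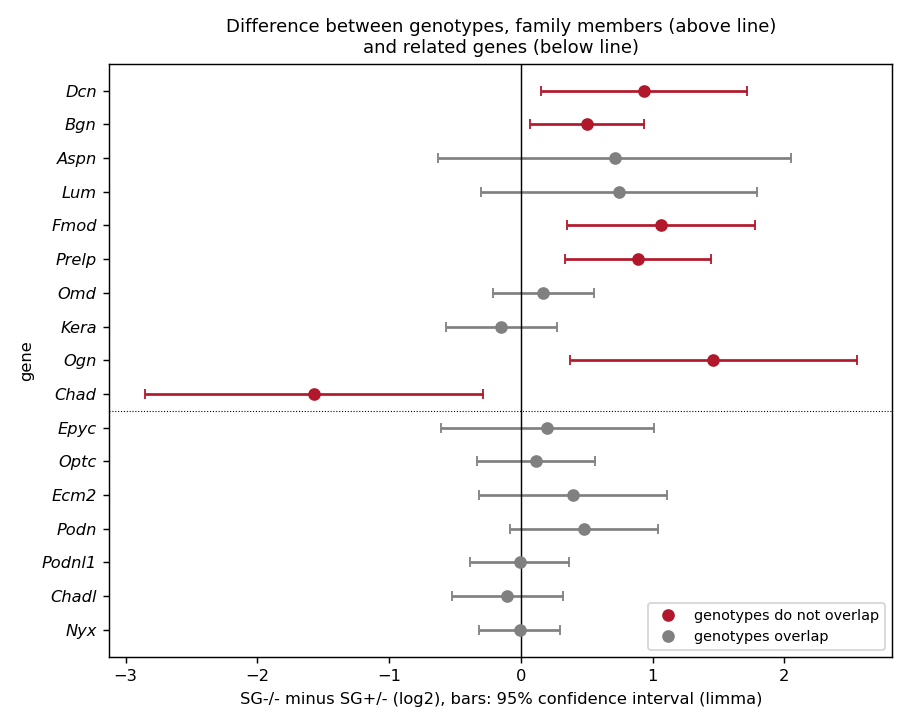
Difference SG-/- minus SG+/- in log2 units (horizontal axis) with limma's 95% confidence interval for the 10 family genes above the dotted line and 7 related genes below it. The 6 red points, whose genotypes do not overlap, have intervals away from 0, with Chad on the lower side at -1.57 and Ogn farthest on the higher side at 1.46.

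Of 8 further genes of the family listed, 7 were measured. None had an unadjusted p under 0.05 and in none were the genotypes apart, beside 2.11% and 6.03% of all genes. Podn, which encodes podocan, differed by 0.48 and Ecm2, a leucine-rich matrix protein gene that neighbours Aspn, by 0.39. Epyc (epiphycan of cartilage) differed by 0.20, Optc (opticin of the eye) by 0.11, Chadl (chondroadherin-like) by -0.10, Podnl1 (podocan-like) by -0.01 and Nyx (nyctalopin of the retina) by -0.01. Ecm2 was also highest in SG-/- replicate 1, at 7.64 there, between 6.48 and 6.60 in the other SG-/- tumours and between 6.43 and 6.62 in SG+/- tumours. The median difference over these 7 genes was 0.11.

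The family was asked which members vary together from tumour to tumour. Over the 45 pairs of members, 16 pairs (35.6%) had a Pearson r of at least 0.8, and the median r was 0.55. Of these 16 pairs, 5 hold Omd, whose level was not set apart from that of silent genes. The arrays of both genotypes are pooled in these correlations, so a shared difference between genotypes enters them. After the genotype means were removed, the median r was 0.29, with 11 pairs at 0.8 or more. It was 0.23 without SG-/- replicate 1, and -0.01 without the 2 arrays farthest from the median of the first gene of a pair. None of the 45 passed the exact permutation test after Benjamini-Hochberg adjustment (smallest adjusted p = 0.0625), while 16 had an unadjusted p under 0.05. Bgn and Ogn had the highest r, 0.97 (exact permutation p = 0.0042, adjusted p = 0.0625), with a Spearman rho of 0.94 (exact permutation p = 0.0167, adjusted p = 0.188). They kept an r of 0.86 when the 2 arrays farthest from the Bgn median were left out. Dcn and Ogn ranked the 6 tumours in the same order, with a rho of 1.00 (exact permutation p = 0.0028, adjusted p = 0.125) and an r of 0.91 (exact permutation p = 0.0014, the smallest the 720 pairings gave, adjusted p = 0.0625). Their r without the 2 arrays farthest from the Dcn median was 0.96. Dcn and Bgn had an r of 0.93 (exact permutation p = 0.0042, adjusted p = 0.0625), and a rho of 0.94 (exact permutation p = 0.0167, adjusted p = 0.188). Without the same 2 arrays that r was 0.92.

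Some other high correlations rested on 2 tumours. Lum and Omd had an r of 0.95 (exact permutation p = 0.0292, adjusted p = 0.132) with a rho of 0.49 (exact permutation p = 0.356, adjusted p = 0.444), and without the 2 arrays farthest from the Lum median their r was -0.77. Aspn and Omd, neighbours on chromosome 13, had an r of 0.94 (exact permutation p = 0.0361, adjusted p = 0.132) with a rho of 0.60 (exact permutation p = 0.242, adjusted p = 0.351), and -0.12 without 2 arrays. Of the 16 pairs at 0.8 or more, 5 stayed there without the 2 arrays, 6 stayed there without SG-/- replicate 1, and 7 turned below 0 without the 2 arrays. Besides the pairs named further above, those that stayed without the 2 arrays were Bgn with Prelp and Prelp with Ogn. Bgn and Prelp had an r of 0.85 (exact permutation p = 0.0194, adjusted p = 0.132), and 0.96 without 2 arrays. Prelp and Ogn had an r of 0.88 (exact permutation p = 0.0139, adjusted p = 0.132), and 0.87 without 2 arrays. Fmod and Prelp, next to each other on chromosome 1, had an r of 0.86 (exact permutation p = 0.0236, adjusted p = 0.132) and a rho of 0.94 (exact permutation p = 0.0167, adjusted p = 0.188), and an r of 0.79 without 2 arrays. The 7 pairs of members that share a chromosome had a median r of 0.86, and the 38 other pairs 0.55. Without the 2 arrays these medians were 0.49 and -0.02. The pairs that share a chromosome ran from -0.62 (Dcn and Kera) to 0.94 (Aspn and Omd). The other pairs ran from -0.74 (Prelp and Chad) to 0.97 (Bgn and Ogn). They hold all 9 pairs of Chad, of which 8 were negative. Cenpp, whose span in the annotation holds Ecm2, Aspn, Omd and Ogn, differed by -0.15 and had an r of -0.27 to Aspn and -0.26 to Ogn.

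Over the 6 pooled arrays Chad and Kera each had a negative r with 8 of the other 9 members, and a positive one (0.47) with each other. These signs were not kept in every setting. After the genotype means were removed, Chad had an r of 0.29 with Dcn, 0.17 with Bgn, 0.25 with Lum and 0.19 with Fmod, while Kera was below 0 with the same 4 genes. Without 2 arrays, Lum had an r of 0.50 with Chad and 0.96 with Kera, and Chad and Kera had -0.51. Chad and Prelp had the lowest r, -0.74 (exact permutation p = 0.0736, adjusted p = 0.184), with a rho of -0.89 (exact permutation p = 0.0333, adjusted p = 0.278), and -0.79 without 2 arrays. For comparison, 2.84% of all other genes had an r of at least 0.8 with Dcn, where 4 of the 9 other members did, and 2.75% had one with Chad, where 0 of 9 did. With Kera 11.3% of all other genes had such an r, and 0 of 9 members did. Kera stood at 5.58, 5.62 and 6.00 in SG-/- tumours, against 5.63, 6.04 and 5.97 in SG+/- tumours. The mean of the silent receptor genes was 4.57, 5.13 and 5.86 over the SG-/- tumours, against 4.58, 5.62 and 5.49 over the SG+/- tumours. The part of this array level in the correlations of Kera was not tested.

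**Figure D3:**
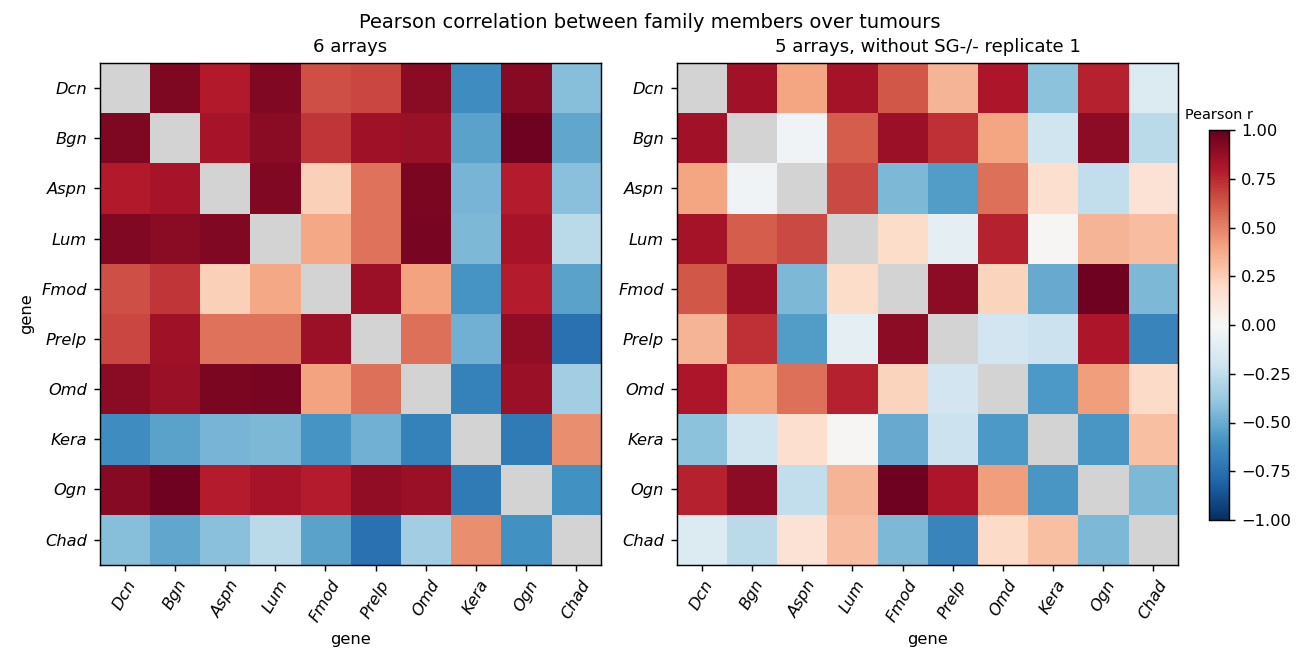
Pearson r (colour, from -1 to 1) between each pair of the 10 genes over the 6 tumours (left) and over 5 tumours without SG-/- replicate 1 (right), with the diagonal in grey. The left panel shows 16 pairs at 0.8 or more, and the rows of Kera and Chad below 0 except with each other (0.47). The right panel shows 8 pairs at 0.8 or more, with Aspn, Lum and Omd paler.

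Among 3703 named genes with an SD of at least 0.3, those most like Dcn over the 6 arrays were Postn (r = 0.99), a matrix protein of activated fibroblasts, Cd3g (0.99), a T cell receptor chain, Cd53 (0.99), a leukocyte tetraspanin, Slfn5 (0.98) and Pcdhb12 (0.98). Those most like Ogn were Fcgr1 (1.00), an Fc receptor of macrophages, Pdgfrl (0.99), Clec12a (0.99), a myeloid lectin, Dock2 (0.99), which acts in leukocyte migration, and Ptprc (0.99), which encodes CD45. Without the tumour in which Dcn was highest, r stayed at 0.96 or more for the 5 genes like Dcn, and likewise for the 5 like Ogn. Without the 2 arrays farthest from the Dcn median, r with Dcn ran from 0.82 (Slfn5) to 1.00 (Postn). Without the 2 farthest from the Ogn median, r with Ogn ran from 0.79 (Ptprc) to 1.00 (Fcgr1). Those most like Chad were Fbp1 (0.99), an enzyme of gluconeogenesis, the zinc transporters Slc39a8 and Slc39a4 (0.98 each), Atp1b1 (0.98), a sodium pump subunit, and Arhgap44 (0.98). All 5 were highest in SG+/- replicate 2, as Chad was, and without that tumour their r was between 0.92 and 0.99. Without the 2 arrays farthest from the Chad median, their r was between 0.86 and 0.98. These are the top of a long ranking over 6 arrays and have no test.

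The median over the 10 members, relative to the SG+/- mean of each gene, was 1.13, 0.29 and 0.30 in the SG-/- tumours, against 0.03, 0.11 and -0.15 in the SG+/- tumours. SG-/- replicate 1 held the highest value of 7 members and SG+/- replicate 3 the lowest of 6, beside 20.1% and 8.60% of all genes. The linear levels of the 10 members summed to between 9470 and 16958 in SG-/- arrays and between 6992 and 10239 in SG+/- arrays. When SG-/- replicate 1 was left out, the median difference was 0.30, and 3 members (Fmod, Prelp and Ogn) had an unadjusted p under 0.05.

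Collagens that these proteins bind followed a like order of arrays in part. Of 12 fibrillar and associated collagen genes, all measured, 11 were higher in SG-/- tumours, 1 had an unadjusted p under 0.05 and in 0 were the genotypes apart, beside 2.11% and 6.03% of all genes. The collagen medians were 1.03, -0.12 and 0.03 over the SG-/- tumours and 0.02, 0.16 and -0.15 over the SG+/- tumours. SG-/- replicates 2 and 3 thus lay within the SG+/- range for collagens, while for the proteoglycans they lay above it. Col14a1, a collagen at fibre surfaces, differed by 0.84, Col3a1 by 0.58 and Col1a1 by 0.38, each with overlap.

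Markers of fibroblasts were also higher in most cases. Of 20 listed genes 19 were measured, 18 were higher in SG-/- tumours, 5 had an unadjusted p under 0.05, and in 4 the genotypes were apart, beside 46.3%, 2.11% and 6.03% of all genes. Their medians were 1.03, 0.33 and 0.06 over the SG-/- tumours and 0.06, 0.06 and -0.06 over the SG+/- tumours, and their linear levels summed to between 12621 and 24306 in SG-/- arrays and between 9754 and 13190 in SG+/- arrays. S100a4, a calcium-binding protein, differed by 0.63, Fap, a protease of activated fibroblasts, by 0.59 and Pdgfra, a receptor of fibroblasts, by 0.17. With the mean of the fibroblast markers of each array as a covariate, the family median was 0.11 and only Fmod kept an unadjusted p under 0.05 (limma adjusted p = 0.853). Under that covariate the differences of Fmod, Prelp and Chad were 1.02, 0.66 and -1.47, and those of Dcn, Bgn and Ogn were 0.39, 0.21 and 0.59. The unadjusted limma p was 0.0405 for Fmod, 0.0526 for Prelp, 0.0613 for Ogn, 0.08 for Chad, 0.2 for Dcn and 0.26 for Bgn. Lum, Aspn and Omd turned to -0.06, -0.40 and -0.07. The covariate itself peaked at 9.60 for SG-/- replicate 1, with 8.75 (SG-/- replicate 2) next and 8.37 (SG+/- replicate 3) lowest. Since it mainly set that highest tumour apart, the fit cannot separate fibroblast content from other features of the same tumour. The part of fibroblast content in the differences was not tested.

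**Figure D4:**
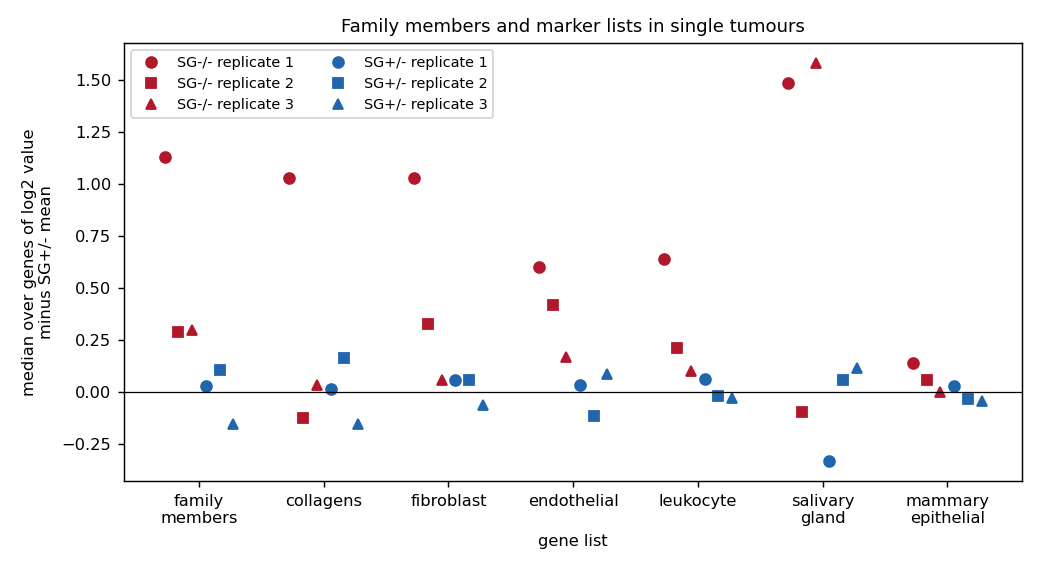
Median over the genes of each list of the log2 value minus the SG+/- mean (vertical axis) in each SG-/- tumour (red) and SG+/- tumour (blue), for the family members and 6 other lists. SG-/- replicate 1 is high for the family (1.13), for collagens (1.03) and for fibroblast markers (1.03), while the median of the salivary gland markers is high in SG-/- replicates 1 and 3 (1.49 and 1.59).

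Markers of other cells were listed too. Salivary gland markers, all 12 of 12 measured, had medians of 1.49, -0.09 and 1.59 over the SG-/- tumours and of -0.33, 0.06 and 0.12 over the SG+/- tumours, with linear sums between 7536 and 25783 in SG-/- arrays and between 6855 and 13444 in SG+/- arrays. Of these 12, 8 were higher and 4 lower. Among them, 4 of the higher and 1 of the lower had an unadjusted p under 0.05. The genotypes were apart in 3 of the higher and 2 of the lower. Of all genes, 46.3% were higher. With such a p, 1.43% of all genes were higher and 0.685% lower, and without overlap 2.84% and 3.19%. The salivary proteins Bpifa2, Klk1 and Pip differed by 5.27, 4.45 and 2.14. The 4 lower ones, named after their values were seen, were Dcpp2 at -2.54, Smr2 at -0.64, Aqp5 at -0.21 and Dcpp3 at -0.08. The markers did not follow 1 order of tumours: Klk1 was highest in SG-/- replicate 2, at 10.40 there, and at 9.02 and 6.74 in SG-/- replicates 1 and 3. Endothelial markers were higher in 9 of 9 genes, beside 46.3% of all genes, with medians of 0.60, 0.42 and 0.17 over the SG-/- tumours and between -0.12 and 0.09 in SG+/- arrays, and linear sums between 2455 and 3434 in SG-/- arrays and between 2006 and 2349 in SG+/- arrays. The genotypes were apart in 5 of these 9 endothelial genes, beside 6.03% of all genes. An unadjusted p under 0.05 was found for 3 of the 9, beside 2.11% of all genes. Pecam1, Cdh5 and Vwf differed by 0.35, 0.51 and 0.38. Leukocyte markers were higher in 9 of 9 measured genes of 10 listed, with medians of 0.64, 0.21 and 0.10 over the SG-/- tumours and between -0.03 and 0.07 in SG+/- arrays. Their linear sums lay between 4951 and 6915 in SG-/- arrays and between 4765 and 4884 in SG+/- arrays. In 2 of the 9 leukocyte genes the genotypes were apart, and 3 had an unadjusted p under 0.05. Ptprc, Cpa3 and Cd3e differed by 0.42, 0.69 and 0.44. The part of these cells in the family's differences was not tested.

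For the remaining marker lists the median differences were smaller. Pericyte and smooth muscle markers (11 of 11 measured) had a median of 0.14, adipocyte markers (8 of 9) 0.26, nerve and Schwann cell markers (6 of 9) -0.07, skeletal muscle markers (10 of 10) -0.01 and mammary epithelial markers 0.05. Among them Rgs5, Tagln and Mcam differed by 0.23, 0.86 and -0.24, Adipoq, Cidec and Fabp4 by 0.21, 0.36 and 0.99, and Sox10, S100b and Pmp22 by -0.05, -0.58 and 0.46. Acta1, Myh4 and Myh1 differed by -0.01, -0.72 and 0.48, and Krt8, Krt19 and Wap by 0.13, 0.89 and -0.75. No gene of these lists passed the limma adjustment over all genes.

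Receptors and signalling partners of the family were mixed. Of 20 listed genes 19 were measured, 13 higher and 6 lower, with 1 at an unadjusted p under 0.05, beside 2.11% of all genes, and a median of 0.11. That gene was Itga2, the collagen-binding integrin chain of the receptor that also binds chondroadherin. It averaged 9.39 ± 0.43 in SG-/- tumours, against 8.37 ± 0.52 in SG+/- tumours (SD, n = 3 each) without overlap, a difference of 1.02 opposite in sign to that of Chad. Tlr2, the receptor for biglycan, differed by 0.17 and Bmp4 by -0.30.

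Enzymes that build the sulphated chains on the core proteins had a median difference close to that of all genes. Of 25 listed genes 24 were measured, 8 higher and 16 lower, with 0 at an unadjusted p under 0.05, beside 2.11% of all genes. Their median was -0.05, beside -0.01 over all genes, of which 46.3% were higher. Xylt1, which starts the chain, differed by 0.06, Chst11, a chondroitin sulphotransferase, by -0.50 and Ust, a uronyl sulphotransferase, by -0.25. Of 12 proteases that can cut members of the family, 9 were higher and 3 lower, 3 had an unadjusted p under 0.05, and the median was 0.16. Over all genes 46.3% were higher and 2.11% had such a p. Adamts1 averaged 9.85 ± 0.40 in SG-/- tumours, against 9.02 ± 0.29 in SG+/- tumours, and Mmp13, a collagenase, 7.22 ± 0.07 in SG-/- tumours, against 7.80 ± 0.45 in SG+/- tumours (SD, n = 3 each), both without overlap. Bmp1, which removes propeptides from biglycan and from procollagen, differed by 0.28.

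Single tumours set the size of several differences. With 1 tumour left out at a time, Dcn ran between 0.64 and 1.13, Bgn between 0.32 and 0.63, Fmod between 0.73 and 1.38, Prelp between 0.72 and 1.10, Ogn between 0.94 and 1.96 and Chad between -2.01 and -0.90. The low ends came without SG-/- replicate 1 for Dcn, Bgn, Prelp and Ogn, without SG-/- replicate 2 for Fmod and without SG+/- replicate 2 for Chad. Lum ran between 0.27 and 1.03, with 0.46 without SG+/- replicate 3. Aspn ran between 0.0002 and 1.19, Omd between 0.03 and 0.25 and Kera between -0.28 and -0.07.

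**Figure D5:**
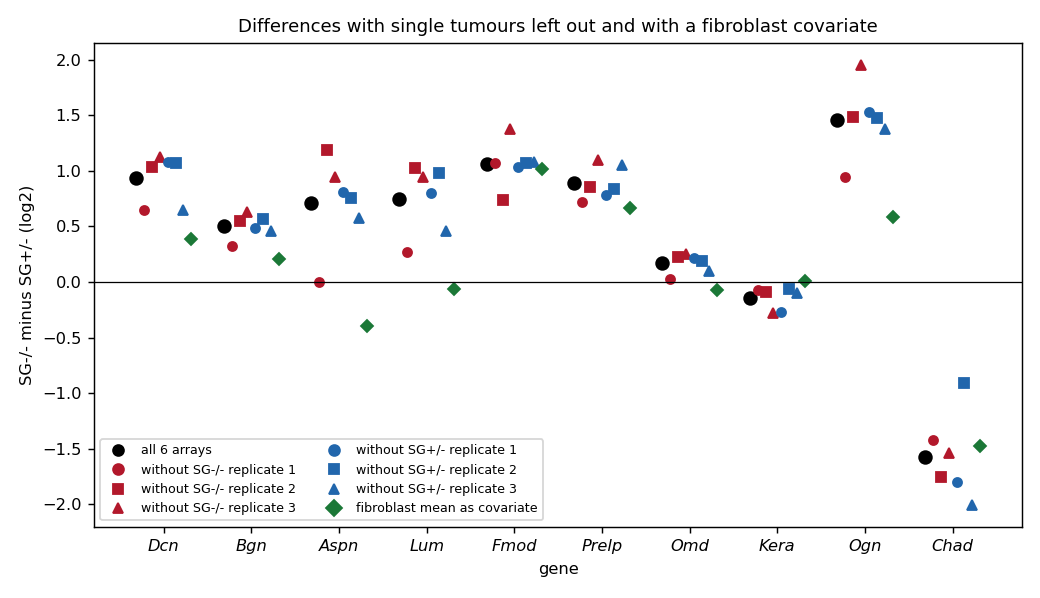
Difference SG-/- minus SG+/- in log2 units (vertical axis) of each family gene with all 6 arrays (black), with 1 tumour left out (red for SG-/-, blue for SG+/-) and with the fibroblast marker mean as a covariate (green). Aspn is at 0.0002 without SG-/- replicate 1, Fmod stays at 1.02 with the covariate, and Chad stays below 0 throughout.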

How the data were processed

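Expression was measured in tumours of 3 SG-/- and 3 SG+/- mice. The authors deposited log2 RMA values, 1 for each probe set, after background correction and quantile normalization, and this can compress differences of dim genes. RMA, limma and Affymetrix Expression Console are named, with no versions, in the submitters' processing notes. Of 33793 probe sets, 23521 had 1 symbol in the platform's annotation, 1814 several and 8458 no entry. The brightest probe set stood for each of 22180 genes.

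The fit used limma 3.58.1 (lmFit, eBayes, R 4.3.3) without covariates. Its two-sided p-values were adjusted by Benjamini-Hochberg across the 22180 genes, with a threshold of 0.05. The test was checked on simulated data. Correlations used exact permutations in Python 3.11.15. Linear sums add 2 to the power of each value. Named genes were Srgn, all members and related family genes, for each further list the first gene and the 2 with the smallest p, and the 5 genes most like Dcn, Ogn and Chad. Predicted and receptor genes were left out of the last. The members and lists were chosen with earlier results of these data known. Alternatives changed the dim-gene filter, normalization, centring, variance model, array weights, probe set rule and covariates, and left out each tumour.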

Additional observations from a re-analysis of the deposited data

How the results depend on the processing

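Over the alternatives that gave a value for each, the differences of Dcn, Bgn, Fmod, Prelp and Ogn kept a sign above 0. Those of Chad and Srgn stayed below 0, and none of the members passed the limma adjustment. Reversals came with the fibroblast mean as a covariate, where Lum was -0.064, Aspn -0.40, Omd -0.070 and Kera 0.013. That covariate also gave a family median of 0.11 and 1 member at an unadjusted p under 0.05. With the dimmest probe set of each gene, which replaces those of Bgn, Fmod and Prelp, 3 members were apart, 3 had an unadjusted p under 0.05 and the median was 0.36. Under that rule Bgn differed by 0.37 and Fmod by 0.35, and both overlapped, as did Prelp. With the receptor mean as a covariate, 1 gene passed over all genes, Srgn, at -1.53 (limma adjusted p = 0.0446, over all settings 0.0446 to 1.00). Leaving out 1 tumour at a time, the family median ran from 0.30 to 0.94, members at an unadjusted p under 0.05 from 3 to 6, genes passing from 0 to 1 (1 without SG-/- replicate 2) and Srgn from -1.60 to -1.39. Pairs of members with r of at least 0.8 numbered 10 without the 2 arrays farthest from the median and 8 without SG-/- replicate 1, chosen after seeing the data. The dim-gene filter removed Srgn, Omd and Kera. The causes were not tested. No paired analysis was possible because the labels number the 6 mice separately, and the replicate numbers used here follow accession order and pair no mice. Signal over background limits Omd, Kera and Srgn. Srgn averaged 5.76 over the 6 arrays, and the means of 67.6% of the silent receptor genes lay below its own.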
